A study of Mus musculus with 12 samples.

Results

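Mir22, Mir185, Mir425 and Mir191 are 4 of the 2202 miRNA genes of the GENCODE vM21 mouse annotation, and they were followed through 12 small-RNA libraries of mouse embryonic stem cells. Mir22, Mir185 and Mir425 were picked because their reads increased more, from input to IP, in a cell line with tagged Ago2 than in a line with untagged Ago2. Mir191 was added as the neighbour of Mir425 and not for its values. The increases of the first 3 in the IPs are therefore given as a description without a test, and Mir191 alone was tested there. All 4 were among the 698 hairpins with enough reads to be tested.

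In 8 libraries the cells carried doxycycline-inducible Ago2 and had 2.5 µg/mL doxycycline, a dose the labels describe as giving wildtype Ago2 levels. The clonal TT-FHAgo2 line made tagged Ago2 and the clonal TT-Ago2 line made it without the tag. Both lines were kept in 0.1 µg/mL doxycycline before induction. Each line gave 2 FLAG antibody pull-down libraries (IP) and 2 input libraries. Pull-down from TT-Ago2 cells, whose Ago2 has no FLAG tag, measured the background of the antibody and beads. For these 8 libraries RNA was cloned by circularization, whether or not it had a 5′ phosphate. Replicate A has 1 code in its titles and reads of up to 50 nt, and replicate B has another code and reads of up to 51 nt. The other 4 libraries were single, were cloned by ligation that needs a 5′ phosphate and had reads of up to 40 nt. They came from TT-FHAgo2 cells at 2.5 µg/mL doxycycline, TT-FHAgo2 cells not given doxycycline, and wildtype and Dicer-null cells, also not given any. The series text describes stem cells without Ago proteins, and the labels tie no deletion to a line.

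A miRNA gene is transcribed into a longer RNA, from which Drosha cuts a hairpin and Dicer then cuts a short duplex of a 5p and a 3p strand. Ago2 and the other Ago proteins hold 1 of the strands and are led by it to mRNAs that pair with its seed, bases 2 to 8. The strand left over is usually degraded, so each gene has a major and a minor arm. miR-22 is made in many tissues and has been studied in heart muscle and blood. miR-185 comes from a region next to Dgcr8 and is known for targets in cholesterol metabolism. miR-191 and miR-425 come from 1 transcript and are found in most tissues.

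The mature strands below carry the values that follow. Sequences are from RefSeq (GRCm38.p6), read 5′ to 3′, with the seed in capitals. The table held 7 of the 8 strands, and miR-185-5p was not among them.
miR-22-5p: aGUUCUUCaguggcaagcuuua
miR-22-3p: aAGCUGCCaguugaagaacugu
miR-185-3p: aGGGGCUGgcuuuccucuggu
miR-425-5p: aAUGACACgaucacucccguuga
miR-425-3p: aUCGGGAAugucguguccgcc
miR-191-5p: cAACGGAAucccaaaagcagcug
miR-191-3p: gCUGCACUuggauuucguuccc

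No seed was shared among these 7 strands. Other mouse miRNAs held the seed of 2 of them: miR-7048-5p that of miR-185-3p, and miR-489-3p that of miR-425-5p. Both hairpins stayed under 0.5 CPM in every library, at most 0.432 CPM for Mir7048 and 0.183 CPM for Mir489. CPM is reads out of 1000000 reads of the library, and a hairpin's level is the sum of reads of 18 nt or more that match it exactly on its strand.

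The 4 genes lie at 3 loci of GRCm38. Mir22 is at chr11:75463716-75463810 on the plus strand, in exons of transcripts of Mir22hg and of the protein-coding gene Tlcd2. Mir185 is at chr16:18327401-18327465 on the minus strand, inside Tango2 but in no annotated transcript of it, and so in an intron. Mir191 at chr9:108568319-108568392 and Mir425 at chr9:108568777-108568861 are both on the plus strand, in exons of the non-coding RNA gene 4833445I07Rik, with Mir425 starting 385 nt after the end of Mir191. Dalrd3, on the same strand, starts 1025 nt after Mir425. Gm24083, annotated as a miRNA gene, lies across Mir191 on the other strand. Reads from the host genes outside the hairpins were few. They came to 0 to 27 reads in a library for Mir22hg and Tlcd2 together, 0 to 17 for Tango2, 2 to 88 for 4833445I07Rik and 1 to 36 for Dalrd3.

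Libraries held 14474875 to 78762632 reads. Hairpins took 50.7 and 58.3% of tagged IP reads, 9.19 and 13.1% of untagged IP reads, and 1.81 to 3.36% in the inputs. In the single libraries they took 10.3% (doxycycline), 1.30% (no doxycycline), 21.1% (wildtype) and 1.42% (Dicer-null). A count of 0 allows up to 3 counts, or 0.0381 to 0.207 CPM by library, and such limits and the intervals below cover counting error only. Replicates of each group differed beyond counting noise, and nothing in the labels says that they came from separate cultures, so p-values measure only how these libraries spread. The 11 stem cell miRNAs listed (miR-290 and miR-302 clusters) all had reads except for 2 that were at 0 without doxycycline. Their sum was 291490 and 398580 CPM in the tagged IP, 78477 in wildtype cells, 890 without doxycycline and 260 without Dicer. The 6 listed fibroblast miRNAs summed to at most 592 CPM in any library, the 7 neural ones to 1181 CPM, the 5 blood ones to 6750 CPM and the 4 muscle ones to 11.7 CPM, with up to 4 muscle, 2 blood and 1 fibroblast miRNAs at 0 in a group. The liver miRNA Mir122 had at most 3.72 CPM. Except for the muscle and liver lists these sums were highest in the tagged IP, and their part in the members' levels was not tested.

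miR-22 was the most abundant of the 4 in each of the 8 circularization libraries. Its hairpin had 3992 and 4085 CPM in the tagged IP (replicates A and B), 144 and 83.9 in its input, 572 and 659 in the untagged IP, and 178 and 263 in the untagged input. Both tagged IP libraries stood above both untagged IP libraries, and these above all 4 inputs. In single libraries Mir22 had 241 CPM in induced and 4.56 in uninduced TT-FHAgo2 cells, 192 in wildtype cells and 0.229 where Dicer was absent. It ranked 12th and 16th among hairpins in the tagged IP and 94th in wildtype cells.

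miR-185 was the rarest of the 4 in the circularization libraries, and its inputs rest on 13 to 38 reads. Mir185 had 55.0 and 98.6 CPM in the tagged IP, 0.869 and 1.02 in its input, 7.90 and 14.5 in the untagged IP, and 1.74 and 2.63 in the untagged input. The order of the groups was that of Mir22. Both genes were picked on gains between these groups, so this order is a description only, and how many of all hairpins share it was not counted. Of the 698 hairpins edgeR called 78.2% higher in the tagged IP than in the untagged IP, and 83.4% higher than in the tagged input. It called 49% higher in the untagged IP than in its input, and 0% lower in the tagged than in the untagged input. Induced TT-FHAgo2 cells had 54.7 CPM and uninduced ones 0.716, against 114 in wildtype and 0.127 in Dicer-null cells.

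Mir425 had 362 and 365 CPM in the tagged IP, 15.9 and 5.76 in its input, 32.9 and 69.8 in the untagged IP, and 23.6 and 16.4 in the untagged input. The gap between the lower untagged IP (32.9 CPM) and the higher untagged input (23.6 CPM) was smaller than that between the replicates of the untagged IP. The single libraries gave 22.5 CPM for induced and 0.527 for uninduced cells, 89.5 for wildtype and 0.343 for Dicer-null cells.

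Its neighbour Mir191 had 807 and 626 CPM in the tagged IP, 33.0 and 7.70 in its input, 83.1 and 108 in the untagged IP, and 42.2 and 15.9 in the untagged input. Replicate A was 4.28 times replicate B in the tagged input and 2.66 times in the untagged input, so the inputs of the 2 lines overlapped. Mir191 had 362 CPM in induced cells, 3.88 in uninduced cells, 1123 in wildtype cells and 1.02 in Dicer-null cells. It was the most abundant of the 4 in the doxycycline, wildtype and Dicer-null libraries, where Mir22 led in the circularization libraries.

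**Figure D1:**
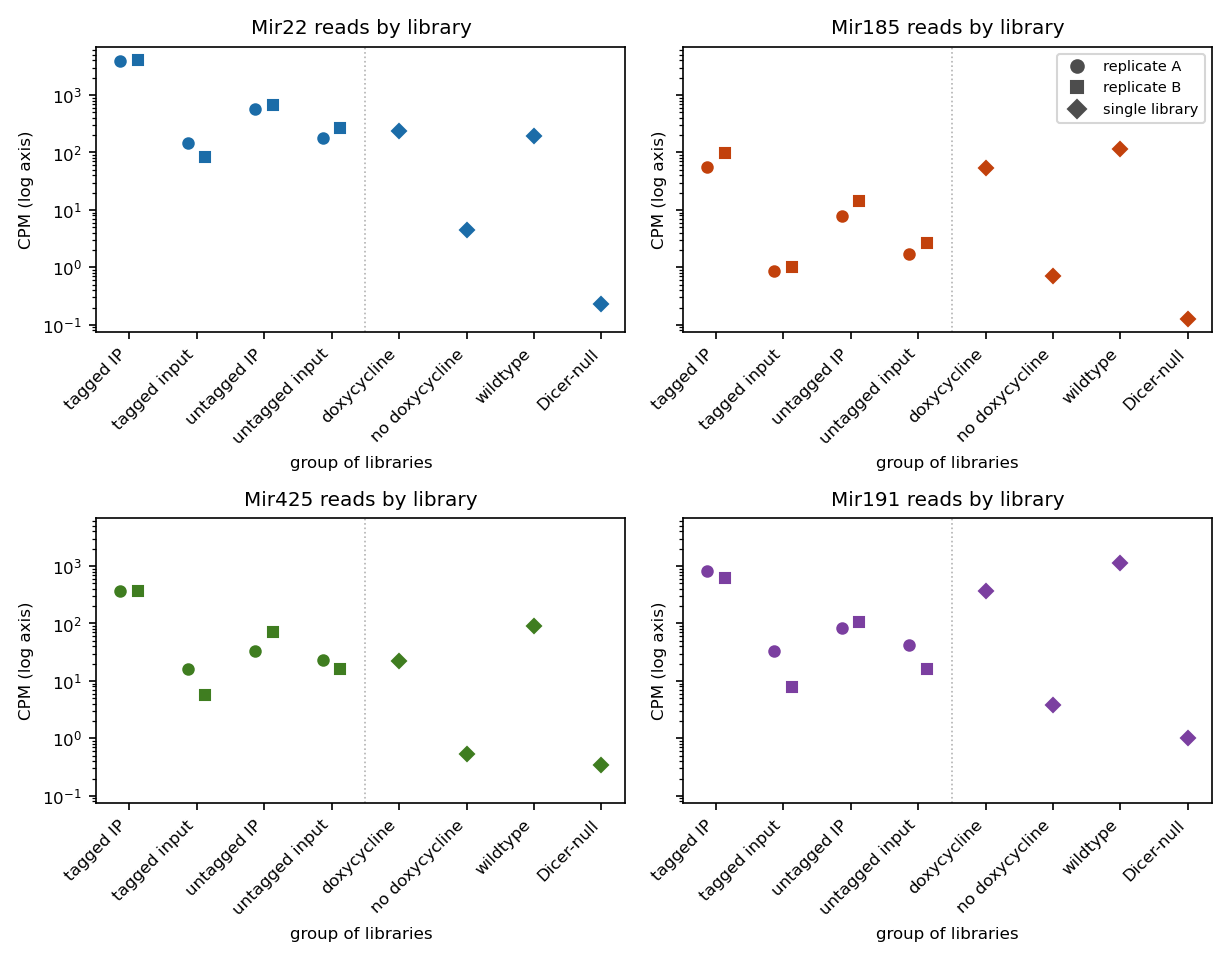
Reads of Mir22, Mir185, Mir425 and Mir191 in each of the 12 libraries, in CPM on a log axis; circles and squares are replicates A and B, diamonds single libraries, and the dotted line parts the circularization libraries (left) from the ligation libraries (right). In each panel the tagged IP lies above every other circularization library, and the libraries without doxycycline and without Dicer lie lowest on the right.

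Tagged IP was first set against untagged IP, which asks how far each miRNA came down with tagged Ago2 rather than with the beads. The edgeR log2 changes were 2.71 for Mir22, 2.77 for Mir185 and 2.82 for Mir425, selected values that are given without a test. Mir191 rose from 95.4 ± 17.4 to 717 ± 128 CPM (SD, n = 2 each), a log2 change of 2.91 (SE 0.74, edgeR adjusted p 0.003855). Of the 698 hairpins 78.2% were called higher in this comparison and their median log2 change was 2.42, so a higher call was the common case. Within title codes Mir191 was 9.72 times as high in A and 5.82 times in B, and the sum of all hairpins 6.35 and 3.88 times.

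Tagged IP against the input of the same line gave larger differences. Log2 changes were 5.15 for Mir22, 6.33 for Mir185 and 5.07 for Mir425, again without a test. Mir191 rose from 20.3 ± 17.9 CPM in the input to 717 ± 128 (log2 change 5.14, SE 0.83, edgeR adjusted p 1.738e-05). In this comparison 83.4% of hairpins were called higher, with a median log2 change of 4.86. Mir185 had the largest of the 4 changes in both codes, 63.3-fold in A and 96.5-fold in B. The other changes were 27.8 and 48.7-fold for Mir22, 24.5 and 81.4-fold for Mir191 and 22.7 and 63.5-fold for Mir425, and their order differed between the codes.

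In the untagged line the IP held more of each miRNA than its input, but by less. Within codes Mir22 was 3.21 and 2.51 times as high in the IP, Mir185 4.54 and 5.54 times, Mir425 1.40 and 4.27 times, and Mir191 1.97 and 6.78 times. The log2 change of Mir191 was 1.71 (SE 0.71) and missed the threshold (edgeR adjusted p 0.0518, from 0.0122 to 0.997 over its 18 other settings). Of all hairpins 49% were called higher, with a median log2 change of 1.91. Mir22 (1.48) and Mir425 (1.36) lay below that median and Mir185 (2.36) above it.

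The difference between the lines' gains was the value on which 3 of the 4 were chosen. Among the 284 hairpins with a mean of at least 10 CPM over the 8 libraries, Mir185 was in the third place with a log2 difference of 3.97, Mir425 was 10th with 3.71 and Mir22 was 13th with 3.67. Mir191 was 30th. Its gain was larger in the tagged line by 3.43 on the log2 scale (SE 1.01, edgeR adjusted p 0.0180, from 0.00118 to 0.8292 over 18 other settings). Of the 698 hairpins 55.2% were called in that direction, and their median was 2.84. The log2 difference for Mir191 was 3.23 without tagged IP replicate A, 3.60 without tagged IP replicate B and 2.73 without tagged input replicate B. It was 3.25 without untagged IP replicate A and 2.56 without untagged input replicate A. The call for Mir191 was lost in these 5 fits, where calls over all hairpins fell as well. It was not lost without tagged input replicate A (4.82), untagged IP replicate B (3.625) or untagged input replicate B (3.96). All 8 fits leave 1 library in a group.

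**Figure D2:**
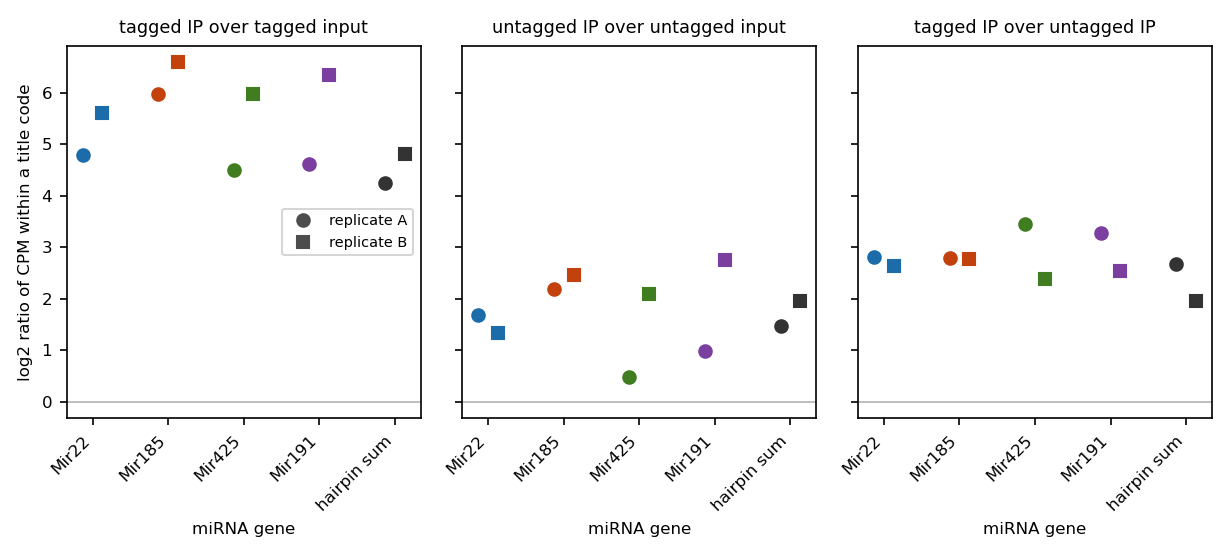
Log2 ratio of CPM between libraries of the same title code, for tagged IP over tagged input, untagged IP over untagged input and tagged IP over untagged IP; circles are replicate A, squares replicate B, and black points the sum of all hairpins. The tagged line's gains lie between 4.51 and 6.59, against 4.25 and 4.81 for the hairpin sum, and the untagged line's between 0.48 and 2.76.

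The tagged IP holds far more hairpin reads than the other libraries, so the 4 were also set against the hairpin total of each library. On that scale Mir185 was 3.33 (A) and 3.43 times (B) as high in the tagged IP as in its input, and Mir22 1.46 and 1.73 times. Mir425 was 1.20 and 2.26 times as high and Mir191 1.29 and 2.90 times. The log2 change of Mir191 over the tagged input became 0.80 (edgeR adjusted p 0.311) and that over the untagged IP 0.60 (adjusted p 0.716). The rises of Mir191 given above are thus calls per library read, and per hairpin read none was called. Calls over all hairpins moved in the same way: with TMM factors computed on hairpins, edgeR called 1 higher and 98 lower in the tagged over the untagged IP, where library totals gave 546 and 57. Over the tagged input there were 37 and 120 with TMM and 582 and 57 with library totals, in the untagged line 3 and 53 against 342 and 17, and for the gain difference 0 and 77 against 385 and 31. The 0 comes with 115 hairpins at an unadjusted p under 0.05, and DESeq2 called 0 higher and 97 lower.

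The inputs of the lines were compared to see whether the starting levels differed. Log2 changes of tagged over untagged input were -0.95 for Mir22, -1.20 for Mir185, -0.88 for Mir425 and -0.52 for Mir191 (edgeR adjusted p 1 for Mir191). In edgeR 0% of hairpins were called lower and none higher, 23 had an unadjusted p under 0.05, and DESeq2 called 0 with 32 under 0.05. All 4 were lower in the tagged input in both codes, at 0.808 and 0.319 times the untagged input for Mir22. The sum of all hairpins was lower too, at 0.926 and 0.537 times, and the median log2 change of hairpins was -0.33. This input level is the base of the gains above. A low tagged input raises the gain difference on which Mir22, Mir185 and Mir425 were chosen, so their low inputs are a description only.

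A list of 32 other broadly expressed miRNA genes, measured as 31 features, gave the scale of these changes. By library totals edgeR called all 31 higher in the tagged IP than in the untagged IP (median log2 change 2.58, range 2.29 to 3.13), and the values of the 4 genes lie inside this range. Over the tagged input all 31 were higher (median 5.08, 4.24 to 6.05), a range that Mir185 passes. In the untagged line 29 of 31 were higher (median 2.15), and all 31 gained more in the tagged line (median 2.89, 2.40 to 3.57), and Mir185, Mir425 and Mir22, chosen on that value, lie above the highest. Scaled to hairpin reads, edgeR called 3 of the 31 higher over the tagged input (median 0.67). The 3 most abundant list members were Mir96 with 13975 ± 6657 CPM in the tagged IP, Mir92-1 with 10550 ± 1184 and Mir16-1/Mir16-2 with 5282 ± 10.3 (SD, n = 2).

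Few reads of the 4 genes were found without Dicer. Dicer-null cells held 18 reads of Mir22 against 6185 in wildtype, an 839-fold lower level (95% interval 530 to 1417, Clopper-Pearson). Mir185 was 901-fold lower (489 to 1881), Mir425 261-fold lower (179 to 397) and Mir191 1106-fold lower (888 to 1395). The interval of Mir425 does not overlap those of the others, but these levels are not of mature strands alone. Reads of 28 nt or more were 6 of the 27 Dicer-null reads of Mir425. They were 12 of 80 for Mir191, 3 of 18 for Mir22 and 0 of 10 for Mir185. All 4 were past 4-fold lower, as were 76% of the 421 hairpins with at least 100 reads in the pair, whose median was 159-fold lower. All 31 features of the list above were past 4-fold lower too, with a median ratio of 0.00187 (range 0.000258 to 0.0554). Mir425, at a ratio of 0.00383, fell less than that median. Mir22 (0.00119), Mir185 (0.00111) and Mir191 (0.000904) fell more, inside the range of the list. Scaled to hairpin reads the ratios were 0.0177 for Mir22, 0.0165 for Mir185, 0.0569 for Mir425 and 0.0134 for Mir191, against a median of 0.0936. With 1 library a side there is no replicate check and no test, and fewer cells with a miRNA and less of it per cell cannot be told apart.

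Without Dicer, long reads made up a larger share of the few reads of Mir191, Mir425 and Mir22 than in wildtype cells. Reads of 28 nt or more were 12 of 80 for Mir191 in Dicer-null cells (15.0%, 95% Clopper-Pearson interval 7.998 to 24.7) against 1 of 36233 in wildtype. All 12 began at the usual 5′ end of miR-191-5p, and the longest had 37 nt. Mir425 had 6 of 27 such reads without Dicer (22.2%, 8.62 to 42.3), 5 of them at the usual start, and 0 of 2887 in wildtype, which allows up to 0.104%. Mir22 had 3 of 18 (16.7%, 3.58 to 41.4), the longest of 28 nt and 0 of them at the usual start. Wildtype had 0 of 6185, which allows up to 0.0485% of Mir22 reads. These are shares of each gene's reads, which fell without Dicer. The Dicer-null library held 78762632 reads and the wildtype library 32255916, where a count of 0 allows up to 3. More long reads per library read were therefore not shown for Mir425 or Mir22. Mir425 also had 8 long reads of 583 (1.37%) in untagged IP replicate A. Mir185 had 0 of 10 without Dicer, which allows up to 30.0%, and its 5p reads there were 9 of 22 nt and 1 of 23 nt. Only 12 of the 18 Mir22 reads (66.7%, 41.0 to 86.7) came from the 3p arm, against 98.9% in wildtype cells.

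Without doxycycline the TT-FHAgo2 cells held little of the 4 miRNAs. Mir22 was 52.8-fold lower than with doxycycline (44.1 to 63.7), Mir185 76.4-fold (48.8 to 127), Mir425 42.7-fold (25.3 to 78.6) and Mir191 93.3-fold (76.9 to 114). Scaled to hairpin reads the ratios were 0.150, 0.104, 0.185 and 0.0847, against a hairpin median of 0.259. All 4 were past 2-fold lower, as were 78.3% of 327 hairpins, with a median of 30.5-fold. So were all 29 list features measured there, with a median ratio of 0.0243 (range 0.00587 to 0.137). Per library read the 4 genes had ratios of 0.0107 (Mir191) to 0.0234 (Mir425), inside that range. The interval of Mir191 lies above that of Mir22, and those of Mir185 and Mir425 overlap both. Against wildtype cells the uninduced cells were lower by 42.1-fold for Mir22, 160-fold for Mir185, 170-fold for Mir425 and 289-fold for Mir191. Per hairpin read the ratio to wildtype was 0.386 for Mir22, above the hairpin median of 0.209, and 0.102, 0.0956 and 0.0561 for the other 3. Again all 4 were past 2-fold, as were 85% of 386 hairpins (median 77.5-fold) and all 31 list features (median ratio 0.00769 per library read). Mir22, at 0.0238, fell less than the list median, and the other 3 fell more.

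The 4 genes split when induced TT-FHAgo2 cells were compared with wildtype cells. Mir22 had 1.26 times its wildtype level (95% interval 1.21 to 1.30). Mir185 had 0.478 times (0.450 to 0.508), Mir191 0.322 times (0.315 to 0.330) and Mir425 0.252 times (0.231 to 0.275). Past 2-fold lower were 3 of the 4 and 57.6% of 396 hairpins, whose median ratio was 0.4002, and the interval of Mir185 reaches less than a 2-fold reduction. None of the 31 list features had a higher ratio than Mir22, and their highest was 1.18. Among all 396 hairpins Mir22 was 350th from the lowest, so hairpins outside the list had higher ratios. Scaled to hairpin reads Mir22 had 2.58 times its wildtype level, Mir185 0.981, Mir191 0.662 and Mir425 0.517 times.

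**Figure D3:**
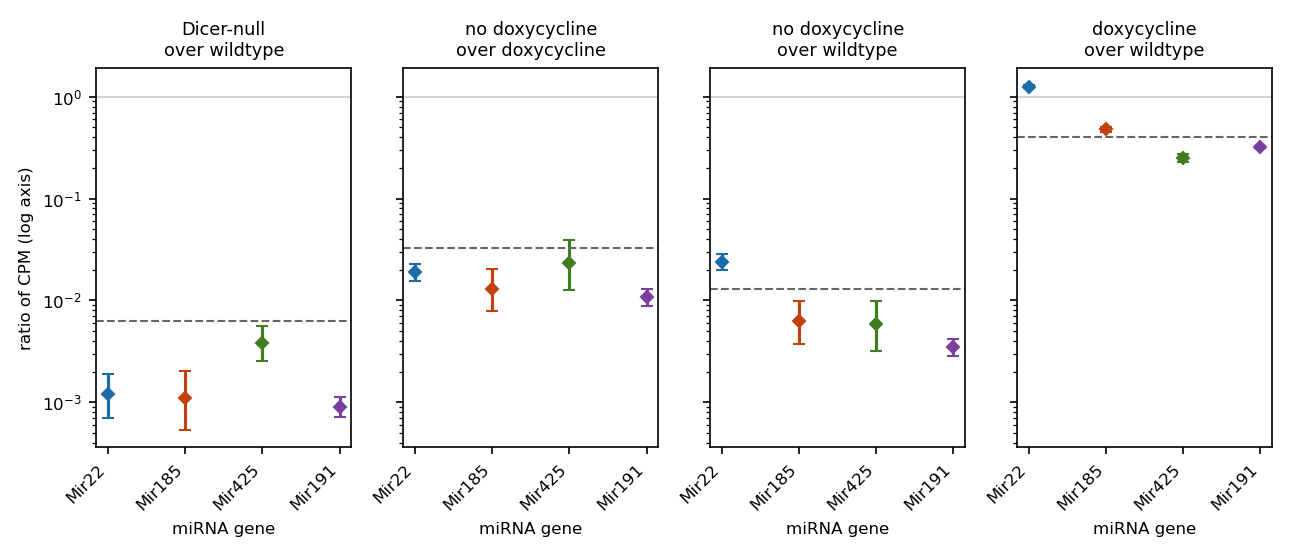
Ratio of CPM between pairs of single libraries on a log axis, with 95% Clopper-Pearson intervals of counting error; the dashed line is the median of all hairpins with at least 100 reads in the pair, and the grey line marks a ratio of 1. In the first 2 panels all 4 points lie below the median, and in the last Mir22 alone lies above 1.

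Mir191 and Mir425 sit in 1 transcript, yet their read ratio changed with the kind of library. There were 0.970 to 2.52 Mir191 reads per Mir425 read in the 8 circularization libraries. With ligation there were 16.1 in the doxycycline library (95% interval 14.8 to 17.5), 12.6 in wildtype (12.1 to 13.04), 7.36 without doxycycline (4.19 to 13.9) and 2.96 in Dicer-null cells (1.89 to 4.77). Over the 12 libraries the correlation of the neighbours was lower (Pearson r 0.68) than that of Mir425 with Mir22 (0.91) or of Mir191 with Mir185 (0.86), which lie on other chromosomes. It was higher than that of Mir22 with Mir191 (0.57), Mir425 with Mir185 (0.45) or Mir22 with Mir185 (0.43). Among 294 hairpins Mir22 was 56th in correlation with Mir425, and Mir185 was 51st with Mir191. These are correlations of log2 of reads out of 1000000 hairpin reads plus 1 over 12 libraries that share 2 protocols, given as a description.

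The ratio of Mir22 to Mir185 also differed between the kinds of library. Mir22 had 41.4 to 165 reads per Mir185 read after circularization and 1.68 to 6.37 after ligation. For Mir22 against Mir191 the ranges were 4.22 to 16.5 and 0.171 to 1.17. For Mir22 against Mir425 they overlapped: 7.54 to 17.4 after circularization, and after ligation 10.7 with doxycycline, 8.64 without, 2.14 in wildtype and 0.667 without Dicer. The doxycycline library and the tagged inputs came from the same line at the same dose. In that pair Mir22 was 1.67 and 2.87 times as high with ligation, Mir425 1.42 and 3.91 times, Mir191 11.0 and 47.1 times and Mir185 62.9 and 53.5 times (against inputs A and B). Scaled to hairpin reads the direction turned for Mir22 (0.501 and 0.504 times) and Mir425 (0.423 and 0.687 times), while Mir191 was 3.28 and 8.27 times and Mir185 18.8 and 9.395 times as high with ligation. With reads that carry 1 extra unmatched 5′ base counted, Mir22 was 1.26 and 1.51 times as high per library read. Protocol, read length and the code in the titles changed together here and cannot be told apart.

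**Figure D4:**
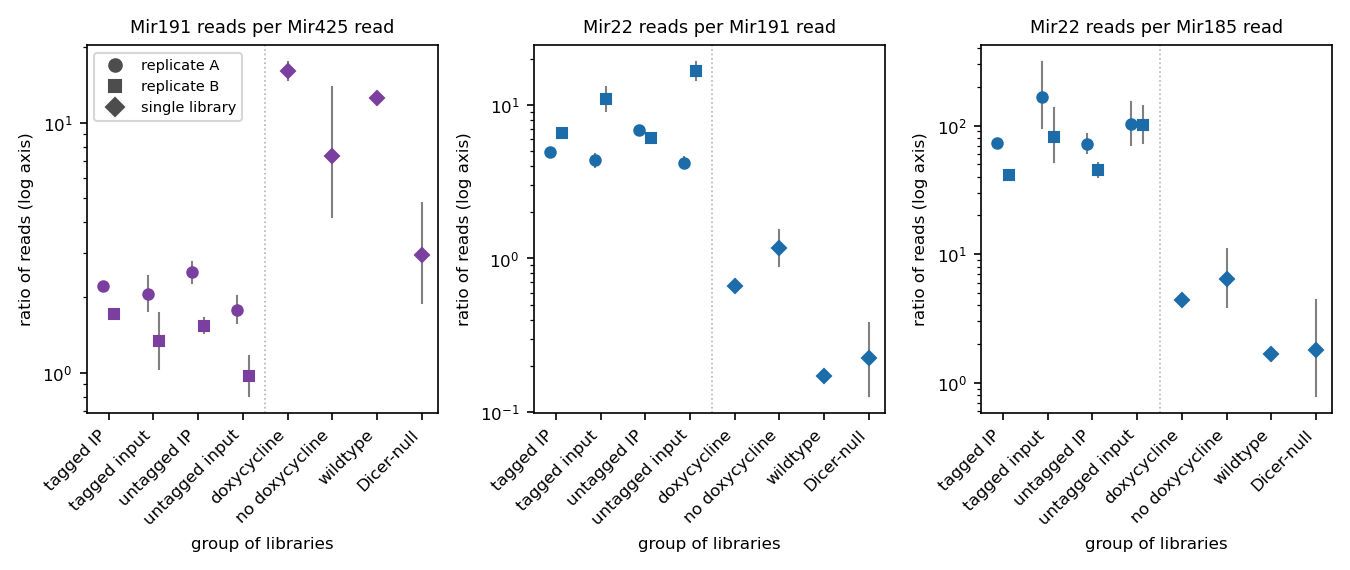
Reads of Mir191 per read of Mir425, of Mir22 per read of Mir191 and of Mir22 per read of Mir185 in each library, on log axes, with 95% intervals of counting error as vertical lines; circles and squares are replicates A and B, diamonds single libraries. The dotted line parts circularization from ligation libraries, and in the right panel the sides run from 41.4 to 165 and from 1.68 to 6.37.

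By a rule on the correlation over the 12 libraries, the hairpins most like each gene were found among 294 with a mean of at least 10 CPM. For Mir22 they were Mir377 (r 0.98), Mir484 (0.98) and Mir136 (0.98). Mir185 was closest to Mir7-1/Mir7-2 (0.92), Mir148a (0.92) and Mir541 (0.91). Mir425 was closest to Mir466h (0.97), Mir18 (0.97) and Mir669o (0.97), and Mir191 to Mir19a (0.97), Mir363 (0.97) and Mir103-1/Mir103-2 (0.97). No nearest hairpin is shared between 2 of the 4 genes.

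Arms were compared between IP and input, since Ago2 holds 1 strand of each duplex and these shares were not used to choose the genes. The 4 IP libraries pool the 2 tagged IPs with the 2 untagged IPs, which measured background, and the 4 inputs pool both lines. The comparison is therefore of pull-down with input and does not isolate strands held by tagged Ago2. Mir22 came from its 3p arm and the other 3 from their 5p arms. The major arm made up 96.8% ± 0.488 of Mir22 reads in the 4 IP libraries and 96.7% ± 1.35 in the 4 inputs (SD, n = 4 each). For Mir185 it was 95.5% ± 1.67 and 90.7% ± 6.97, for Mir425 93.1% ± 2.06 and 92.5% ± 1.33, and for Mir191 95.1% ± 2.42 and 89.3% ± 5.96. The differences of 0.0891, 4.79, 0.586 and 5.80 percentage points did not pass the test (exact two-sided permutation test, unadjusted p 0.914, 0.257, 0.629 and 0.143, each 0.943 after adjustment over 16 tests). The smallest p that 4 libraries against 4 allow is 0.0286, or 0.457 for a single difference after adjustment, so these tests could call no single difference and 10 of the 16 would have to be at that minimum together.

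Read ends in IP and input are given with the same pooling of lines and the same limit on the tests. Among exactly matched reads the usual 5′ end took 93.2% ± 4.22 of Mir22 3p reads in the IPs and 94.2% ± 2.60 in the inputs. For Mir185 the values were 90.0% ± 5.22 and 93.3% ± 2.49, for Mir425 83.4% ± 3.83 and 82.6% ± 11.0, and for Mir191 72.5% ± 7.59 and 68.9% ± 14.7 (SD, n = 4 each). These shares leave out major-arm reads of the same libraries with 1 unmatched base before that end. Such reads were 17.7 to 60.4% for Mir22, 31.96 to 69.9% for Mir191, 12 to 29.2% for Mir425 and 0 to 5% for Mir185. Mean lengths of the major arm differed by 0.0030 nt for Mir22, 0.0113 for Mir185, -0.195 for Mir425 and 0.0690 for Mir191. All 16 comparisons, which include tails of A or T, had an adjusted p of 0.943 (exact permutation tests).

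The most frequent reads show the strands as they were sequenced. Capitals mark bases past the annotated 3′ end of the mature strand, all of which match the hairpin.
Mir22, 22 nt: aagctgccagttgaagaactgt
Mir425, 25 nt: aatgacacgatcactcccgttgaGT
Mir191, 23 nt: caacggaatcccaaaagcagctg
Mir191, 24 nt: caacggaatcccaaaagcagctgT

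The annotated miR-22-3p made up 87.3% of all exact Mir22 reads. For Mir425 the commonest read was 2 nt longer than the annotated strand, with 49.0% of reads, and the annotated 23 nt form took 6.85%. Mir191 was spread over the 23 nt form (38.2%), the 22 nt form (23.9%) and the 24 nt form (14.0%). Its lengths differed between kinds of library: 24 nt reads were 3.98 to 12.8% of 5p reads after circularization and 19.0 to 33.8% after ligation, and 21 nt reads 13.03 to 27.0% and 2.88 to 7.14%. For Mir22, 22 nt reads were 85.1 to 95.2% and 83.3 to 96.5%.

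Of the 4 genes Mir185 had the highest share of untemplated A or T at the 3′ end in every library except Dicer-null, where it had 0% and Mir425 13.8%. In the inputs its share rests on 14 to 35 reads. Without doxycycline it was 14.3% of 21 reads, against 12.7% of 110 for Mir191. The ranking in those libraries rests on few reads and was not tested. Reads with A or T added were 26.9% of Mir185 5p reads at the usual start in the doxycycline library, nearly all with A (25.96%). In the IPs the A or T share of Mir185 was 13.2% ± 2.92, against 1.60% ± 0.319 for Mir22, 3.74% ± 0.454 for Mir425 and 5.77% ± 0.914 for Mir191 (SD, n = 4 each).

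An extra base in front of the usual 5′ end set the circularization libraries apart. Reads of the major arm with 1 unmatched base there were 17.7 to 60.4% for Mir22, 31.96 to 69.9% for Mir191, 12 to 29.2% for Mir425 and 0 to 5% for Mir185. In the ligation libraries they were at most 0.154% for any of the 4. The base was T in 78.1 to 88.8% of such Mir22 reads and 72.8 to 82.4% of such Mir191 reads. For Mir425 it was T in only 7.41 to 40% of them, and for Mir185 in 0%. On the Mir185 hairpin the base before the usual start is itself T, and there reads that begin 1 base earlier and match were up to 13.7%.

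Reads with that base do not match exactly and are missing from the levels and the 5′ end shares above. Counting them raised Mir22 by 1.21 to 2.44 times in the circularization libraries, most in untagged IP replicate B, and raised Mir22 in the tagged IP to 5576 and 8692 CPM. Mir191 in the tagged IP came to 1305 and 1577 CPM. With them counted the log2 change of Mir191 was 2.87 over the untagged IP and 5.32 over the tagged input, and that of the untagged IP over its input became 1.94 (edgeR adjusted p 0.0202). There were then 1.57 to 3.27 Mir191 reads per Mir425 read, below the 16.1 of the doxycycline library, the 12.5 of wildtype and the 7.36 without doxycycline, but this range takes in the 3 of the Dicer-null library.

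**Figure D5:**
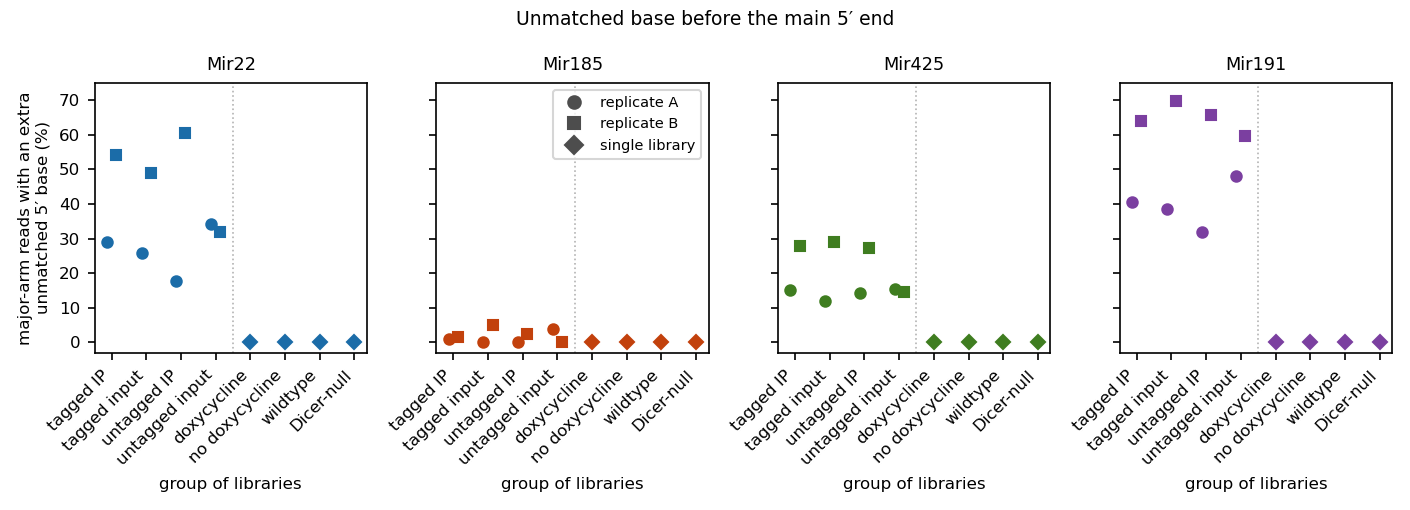
Share of major-arm reads, in percent, that carry 1 unmatched base before the usual 5′ end, for each gene and library; circles and squares are replicates A and B, diamonds single libraries, and the dotted line parts circularization from ligation libraries. Mir191 reaches 69.9% and Mir22 60.4% on the left, and the 4 libraries on the right lie near 0.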

How the data were processed

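The authors' deposited files list distinct read sequences with raw read counts per library, not normalised. Trimming, adapters and aligners are not given in the sources used here beyond an adapter in the labels' protocols. Reads of 18 nt or more were matched exactly, sense strand, to 2202 GENCODE vM21 miRNA genes; a read found in several hairpins was kept as a merged feature. CPM used the total of each file. Tests used edgeR 4.0.16 quasi-likelihood with library totals, 698 hairpins passing filterByExpr, 4 replicated groups in 1 fit and Benjamini-Hochberg adjustment over all hairpins at 0.05; DESeq2 1.42.0 was the other tool. Read properties were compared by exact permutation in scipy 1.17.1. Single libraries have ratios with 95% Clopper-Pearson intervals. The fit was tested on simulated data. Members and lists were chosen with earlier results of these data known. Named hairpins are the 4 genes, the 3 best correlated with each, the 3 most abundant of the reference list, the host genes and 2 hairpins sharing a seed. TMM, DESeq2 factors and hairpin scaling, other read filters, a replicate block and each library left out were alternatives, and the extra 5′ base was added after seeing the data.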

Additional observations from a re-analysis of the deposited data

Results flagged for a closer look

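The gain of Mir191 from input to IP was larger in the tagged line than in the untagged line, with a log2 difference of 3.43 (edgeR adjusted p 0.0180). The direction held in all 8 fits that left out 1 library. The call was lost in 5 of the 8, where calls over all hairpins fell as well.

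In 4 of 32 sets of 4 libraries (each read property in the IPs or in the inputs) 1 library stood far from the other 3, where chance gives about 1 in 20. The usual 5′ end took 90.3% of exactly matched Mir22 3p reads in tagged input replicate B, against 95.3 to 95.7% in the other inputs. For Mir425 that share was 66.2% in untagged input replicate B, against 86.6 to 89.2%. Among the IPs it was 89.1% in tagged IP replicate A, against 81.1 to 82.2%. The share of Mir425 reads with an added A or T was 4.42% in untagged IP replicate A, against 3.47 to 3.53%. That share rests on 6 reads with A and 14 with T, of 453, and the flag takes no account of read counts.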

How the results depend on the processing

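TMM factors and DESeq2 size factors were computed over hairpins alone and, like hairpin totals, take the common gain of hairpins out: the median log2 difference of the lines' gains was 2.84 with library totals, 0.16 with TMM, 0.019 with hairpin totals and -1.28 with DESeq2 over 2618 hairpins. Under TMM, hairpin totals and DESeq2 the Mir191 change over the untagged IP was 0.55, 0.60 and 0.58 on the log2 scale, over the tagged input 0.78, 0.80 and 0.80, and the gain difference 0.82, 0.82 and 0.76, none called. The untagged gain of Mir191 became -0.032, -0.013 and 0.036, that of Mir22 -0.40, -0.23 and -0.31 and that of Mir425 -0.51, -0.42 and -0.43. With each distinct sequence counted once the untagged gain was -0.13 for Mir191 and -0.44 for Mir22.

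Leaving out 1 library gave Mir191 gain differences of 2.56 to 4.82 and untagged gains of 1.18 to 2.59, with calls without tagged input replicate A (1.71, edgeR adjusted p 0.0226), tagged input replicate B (0.0232) or untagged input replicate A (2.59, 0.0351). Its input difference ran from -1.92 to 0.35. With the code as a replicate block the untagged gain was 1.97 (edgeR adjusted p 0.0122), with reads of 18 to 26 nt 1.72 (0.0434) and with the extra 5′ base 1.94 (0.0202), all called; the block changed no other Mir191 call. The labels do not say that the codes pair libraries, and deviations of same-coded libraries correlated from -0.066 to 0.60 between groups.

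Over 4 genes the median ratio moved with hairpin scaling: to 0.0171 for Dicer-null over wildtype, 0.127 and 0.0986 for no doxycycline over doxycycline and wildtype, and 0.821 for doxycycline over wildtype. The last was 0.352 with reads outside hairpins and 0.437 with unmatched 3′ bases.

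No property difference was called in 212 alternative values (lowest adjusted p 0.183), but with a library left out (smallest p 0.0571), 1 line (0.333) or the block (0.125) none could be. Signs changed as follows, as IP minus input. With 1 library left out, the major arm share ran from -0.294 to 0.727 points for Mir22 and -0.0268 to 1.48 for Mir425. The 5′ end share ran from -2.36 to 0.588 for Mir22, -4.66 to 3.002 for Mir425 and -3.47 to 7.83 for Mir191. Mean length ran from -0.0152 to 0.0151 nt for Mir22, -0.0447 to 0.0563 for Mir185 and -0.00182 to 0.199 for Mir191. In the tagged line alone the 5′ end share was 0.514 for Mir22, -2.80 for Mir425 and -4.38 for Mir191, length -0.00476 for Mir22 and -0.0491 for Mir185, and the tailed share 0.596 for Mir191. In the untagged line the major arm share was -0.698 for Mir22 and -1.56 for Mir425. With reads of 20 nt or more, length was -0.0239 for Mir185 and the 5′ end share -1.62 for Mir425. With distinct sequences counted once, the major arm share was -6.22 for Mir22 and -3.03 for Mir425, the 5′ end share -11.2 for Mir425 and -12.5 for Mir191, length -0.258 for Mir22, -0.254 for Mir185 and -0.632 for Mir191, and the tailed share 6.82 for Mir22, 4.80 for Mir185 and 12.6 for Mir191. With the extra base counted as another start the Mir425 5′ end share was -1.28. The cause was not tested.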
